A study of Rattus norvegicus with 18 samples.

Results

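Sparse, highly methylated stretches of the rat genome far from CpG-dense regions were followed in hippocampal DNA after seizures. The genome was divided into tiles of 1000 bp. A tile was taken where it held 3 to 9 measured cytosines on chromosomes 1 to 20, had a mean level of 80% or more over all its cytosines and all 18 rats, and had no tile with 40 or more cytosines within 5 tiles to either side. This gave 56583 tiles out of 194691 with any measured cytosine and 151450 with at least 3. Of the 84091 tiles that met the conditions on cytosine number and distance, 67.3% also met the condition on level. The level of all 18 rats together therefore chose the tiles, and their high mean is no finding. Just inside the limit lay tiles with means of 80.0001, 80.0004 and 80.0010%, and just outside it tiles with 79.9998, 79.9993 and 79.9968%.

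The left hippocampi came from adult male Sprague-Dawley rats, an outbred stock, weighing 170 to 280 g. The 4 kindling seizure rats had received hippocampal electrical stimulation repeatedly until fully kindled and were set against 4 kindling sham rats. The 3 kainic acid seizure rats had been given systemic injections of kainic acid, a glutamate receptor agonist, until status epilepticus, and were set against 7 kainic acid sham rats. Rats of both seizure groups are labelled as having had 3 class V seizures, the generalised convulsive stage, and were sampled 24 hours after the last seizure. The sources used here do not say what was done to the sham rats of either model. Each sample is labelled as its own replicate of a group, and p-values measure the spread between these samples.

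In mammalian DNA most CpG sites outside CpG islands are methylated by default, in intergenic DNA, introns and repeats alike. After replication Dnmt1, guided by Uhrf1, copies the mark from the old strand to the new one, so that both strands of a CpG normally carry the same state. Neurons hardly divide, and loss of the mark in them can also follow oxidation of the methyl group by Tet enzymes. Sparse methylated tiles therefore show how steadily the default state was held. A level measured in whole tissue averages over all cells and both copies of a chromosome, so a change in cell makeup and a change within cells cannot be told apart.

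The measure was reduced representation bisulfite sequencing, in which DNA is cut at CCGG sites with MspI, treated with bisulfite and sequenced. The deposited table gives a methylation fraction for each of 2330883 cytosines with 0 missing values, and levels are given here as percent. Coordinates are those of the rat build rn6, counted from 1. It holds no read counts, so the depth behind a value is unknown and no interval is given for a single value. In bisulfite reads an unmethylated cytosine and a thymine in the rat's own DNA look alike, and genotypes were not used here. The SD of the difference between both strands of a CpG in these tiles, which grows as fewer reads lie over a cytosine, ran from 4.86 to 6.01 points in kindling seizure rats and from 5.14 to 6.72 points in kindling sham rats. It ran from 5.03 to 5.53 points in kainic acid seizure rats and from 5.08 to 6.25 points in kainic acid sham rats.

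Most of these tiles had a high level in every rat, which the limit of 80% on the mean over the same 18 rats favours. All 18 rats stood at 80% or more in 48085 tiles (84.98%) and at 90% or more in 29619 (52.3%). The tile means had a median of 93.9%, with a 5th percentile of 82.2% and a 95th percentile of 99.1%. A mean of 95% or more was found in 43.2% of tiles, one of 90 to 95% in 26.1% and one of 80 to 90% in 30.7%. The median range between the lowest and the highest rat was 5.18 points, and 27325 tiles (48.3%) had a range under 5 points. Wide ranges were rare. A range of 20 points or more was seen in 1441 tiles (2.55%) and one of 40 points or more in 52. A rat under 70% was seen in 836 tiles (1.48%), under 60% in 103 and under 50% in 25, and the lowest level of any rat in any tile was 32.7%.

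**Figure D1:**
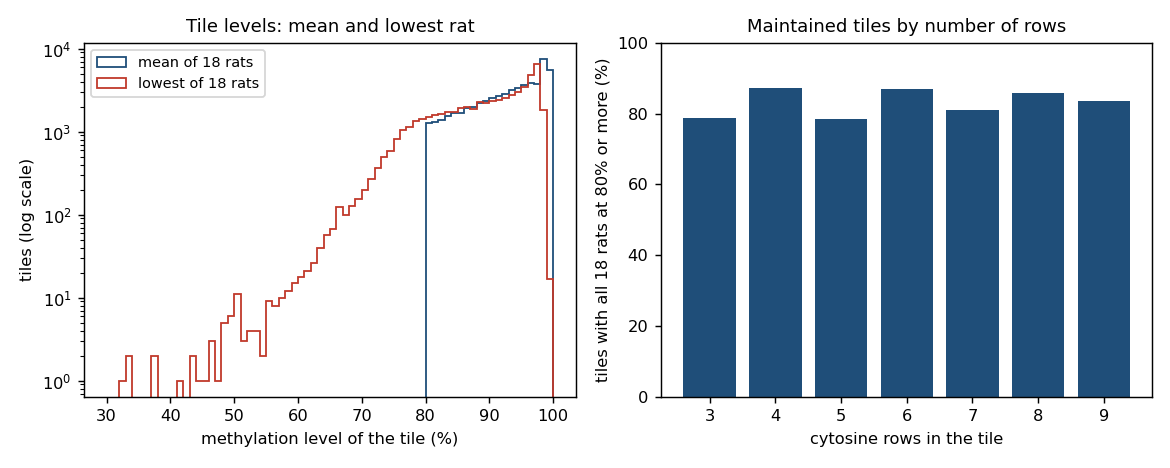
Left, histograms of the mean and of the lowest of 18 rats for the 56583 tiles (methylation level in percent on the x axis, number of tiles on a log scale on the y axis); right, bars of the percent of tiles with all 18 rats at 80% or more, by the number of cytosine rows in the tile. The lowest rat trails down to 32.7%, and the bars stand at 78.7% for 3 rows and 87.1% for 4 rows.

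The steadiest tiles with the most cytosines show what full maintenance looks like. At chr6:60464001-60465000, with 9 cytosines, the 18 rats lay between 97.4 and 98.6%. At chr8:128772001-128773000 they lay between 95.2 and 96.4%, and at chr16:7013001-7014000 between 97.7 and 98.97%. These 3 tiles were named because they had 9 cytosines and the smallest ranges, and the rats of all 4 groups are intermixed in each. The tiles at chr6:10985001-10986000 (97.3 to 98.7%) and chr12:10581001-10582000 (96.3 to 97.8%) complete the set of 5. In 6 tiles all 18 rats stood at exactly 100%.

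The tiles differed in how firmly the level was held by how many cytosines entered the mean, and more by whether that number was odd or even than by its size. All 18 rats stood at 80% or more in 78.7% of 6189 tiles with 3 cytosines, 87.1% of 19219 with 4, 78.3% of 3995 with 5 and 87.0% of 14331 with 6. The share was 81.0% of 2629 tiles with 7 cytosines, 85.9% of 8486 with 8 and 83.4% of 1734 with 9. With an odd number at least 1 CpG has only 1 of its strands in the tile. The median range was 7.67, 4.06, 7.35, 4.91, 6.38, 4.93 and 5.92 points with 3 to 9 cytosines in turn. The mean level was 93.3, 94.4, 91.1, 92.0, 90.7, 91.3 and 90.4% in the same order. Tiles with a lower mean lie nearer the 80% used here, and the part of this was not tested.

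Within the tiles most cytosines had a high level, which the limit of 80% on the tile mean over the same values favours. Of the 303301 cytosines in the tiles, 89.9% had an 18-rat mean of 80% or more and 73.0% one of 90% or more. A mean under 50% was found at 1671 cytosines (0.551%) and under 20% at 203. These low cytosines lay in 1275 tiles (2.25%), which met the limit through their other cytosines. In 40189 tiles (71.0%) every cytosine had a mean of 80% or more. The share of cytosines under 80% was 10.1% here and 10.8% in sparse methylated tiles near a dense tile. It was 12.7% in methylated tiles with 10 to 39 cytosines and 11.5% in dense methylated tiles. The same limit on level chose all of these classes, and their shares were not tested against each other.

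The 2 strands of a CpG, which maintenance methylation keeps alike, had nearly the same level. Over 128654 CpGs measured on both strands out of 174647 in all, the plus strand averaged 92.6% and the minus strand 92.7%. The median absolute difference between strands was 1.56 points, and 95.9% of these CpGs had strands within 5 points. Strands 20 points or more apart were found at 232 CpGs (0.180%). At the 674 CpGs with a strand under 50%, both strands were under 50% in 387 (57.4%).

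The chosen tiles lay scattered along the chromosomes. The DNA was cut at CCGG sites, so the spacing also reflects which tiles were measured. The spacing of all eligible tiles was not set beside it. The median spacing between successive tiles was 20 kb, the 95th percentile 181 kb and the largest 1965 kb, and 12.8% lay directly next to another such tile, in runs of at most 5. The means of adjacent tiles differed by a median of 4.50 points over 3739 pairs, against 5.24 points for tiles 100 places apart on the same chromosome. The share of otherwise eligible tiles that met the limit on level was 64.9% (9632 tiles) at 6 to 20 kb from a dense tile, 65.6% at 21 to 50 kb, 66.8% at 51 to 100 kb and 69.4% (24316 tiles) farther away. By chromosome that share ran from 63.4% on chromosome 12 to 70.9% on chromosome 15. In the last 2 Mb of the chromosomes as measured it was 66.7%, against 67.3% elsewhere.

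Set beside methylated tiles in other surroundings, with their 84.98%, the sparse tiles were held in a similar share. All 18 rats stood at 80% or more in 85.6% of 3645 sparse methylated tiles near a dense tile, 85.8% of 19923 methylated tiles with 10 to 39 cytosines and 87.1% of 271 methylated tiles with 40 or more. The median range of 5.18 points in the sparse tiles far from dense ones stood beside 4.99, 4.69 and 3.25 points in these classes. A mean over more cytosines varies less, and these classes were not tested against each other because the same level limit chose them.

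Averaged over all 56583 tiles, rats with and without seizures had almost the same level. In kindling the mean was 93.1, 92.8, 92.9 and 92.5% in seizure rats 1 to 4, and 93.0, 92.6, 92.5 and 92.5% in sham rats 1 to 4. The groups overlapped, with 92.8% ± 0.228 in seizure rats and 92.7% ± 0.217 in sham rats (SD, n = 4 each), a difference of 0.174 points that is smaller than the pooled SD of 0.222. In kainic acid it was 92.7, 92.6 and 92.9% in the 3 seizure rats, and from 92.4 to 92.8% with a median of 92.6% in the 7 sham rats.

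The kainic acid groups overlapped as well, with 92.7% ± 0.165 in seizure rats (SD, n = 3) and 92.6% ± 0.115 in sham rats (SD, n = 7), a difference of 0.120 points against a pooled SD of 0.130. Both differences were above 0 on all 20 chromosomes, from 0.105 to 0.244 points in kindling and from 0.0593 to 0.182 points in kainic acid. The chromosomes of a rat share its library, so they are not replicates. Over all cytosines of the table the differences were 0.267 and 0.331 points. The direction did not change when any single rat was left out, with 0.0910 to 0.281 points in kindling and 0.0314 to 0.195 points in kainic acid. The lowest values were those without kindling seizure rat 1 and without kainic acid seizure rat 3, so much of each small difference rested on 1 rat.

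The share of tiles under 80% varied between the rats of every group. It was 2.13, 2.76, 2.51 and 4.10% in kindling seizure rats 1 to 4, and 2.57, 3.598, 3.89 and 3.897% in kindling sham rats 1 to 4. It was 2.50, 2.89 and 2.20% in the 3 kainic acid seizure rats, and from 2.55 to 3.94% with a median of 2.89% in the kainic acid sham rats. Kindling seizure rat 4 was the highest of all, and the groups overlapped in both models. The share under 80% was high in rats with a wide difference between strands: kindling seizure rat 4, kindling sham rats 3 and 4 and kainic acid sham rat 5 had strand SDs of 6.01, 6.63, 6.72 and 6.25 points. The part of read depth in these shares was not tested.

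**Figure D2:**
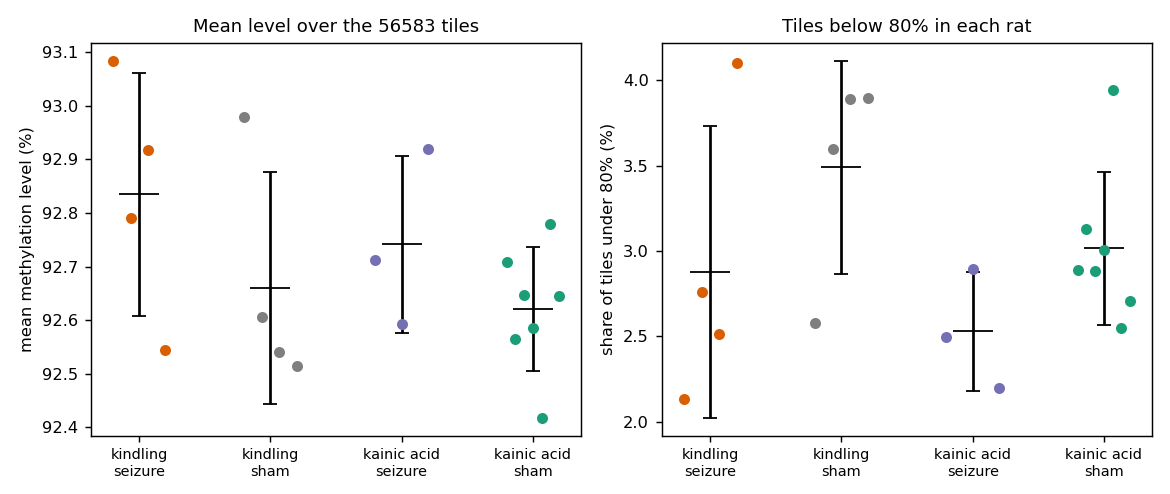
Each point is 1 rat, with group mean (line) and SD (bars), by group: kindling seizure (n = 4), kindling sham (n = 4), kainic acid seizure (n = 3) and kainic acid sham (n = 7). The left panel gives the mean methylation level over 56583 tiles in percent and the right panel the percent of tiles under 80%; the groups of each model overlap in both.

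A low level in a single rat was rare, and the drop could be large. An unmethylated cytosine and a thymine in the rat's own DNA look alike here, so such a drop need not be a loss of methylation. Genotypes were not used, and the part of sequence differences between the rats was not tested. A tile was counted where the lowest rat stood at least 20 points below the lowest of the other 17, which held for 40 tiles (0.0707%) on 17 chromosomes. These tiles were chosen by that gap, so their values are a description. The low rat stood between 33.2 and 73.2%, with a median of 55.3%, and in 22 of the 40 tiles between 40 and 60%. The median of the other 17 rats lay between 82.4 and 99.3%. Tiles with few cytosines made up most of them, since 30 had 3 or 4.

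The clearest case lay at chr4:159339001-159340000, where kindling sham rat 4 had 64.1% and the other 17 rats 97.8 to 100%. The kindling seizure rats had 98.2, 100, 99.3 and 98.9% there, and kindling sham rats 1 to 3 had 99.4, 98.98 and 98.5%. The tile holds 2 CpGs, and only 1 of them was low. At the CpG at 159339776 kindling sham rat 4 had 27.3% on the plus strand and 28.9% on the minus strand, against at least 93.9% in every other rat. At the CpG at 159339742 the same rat had 100% on both strands.

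The same pattern of a single CpG, low on both strands beside a fully methylated neighbour, recurred in other rats. At chr20:30488001-30489000 kainic acid sham rat 2 had 66.4% and the other 17 rats at least 96.7%. The CpG at 30488336 stood at 24.4 and 44.7% on its strands in that rat, and the CpG at 30488389 at 96.4 and 100%. At chr7:25696001-25697000 kainic acid sham rat 7 had 65.6% against at least 91.9% in all others, with 30.6 and 43.0% on the strands of the CpG at 25696111. A kainic acid seizure rat showed it too. At chr10:10454001-10455000 kainic acid seizure rat 2 had 71.7% against at least 97.5% elsewhere, with 55.4 and 37.0% on the strands of the CpG at 10454522.

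In other tiles the measured level of the low CpG was near 0 in the low rat. At chr8:106054001-106055000 kindling seizure rat 2 had 50.5% against at least 77.3% in the others. Its CpG at 106054097 stood at 0 and 3.39%, and its CpG at 106054127 at 99.6 and 98.8%. At the CpG at 106054097 the lowest of the other 17 rats had 47.5 and 61.8%, so that CpG was not high in every other rat. At chr18:59916001-59917000 kindling seizure rat 1 had 50.1% against at least 75.4% elsewhere, with 2.14 and 1.09% at the CpG at 59916385. The lowest of the other 17 rats had 51.25 and 52.8% at that CpG. Among the 12 tiles named for the widest gap, at most 2 a rat, chr8:52955001-52956000 had the most cytosines, 8. There 2 of 4 CpGs, at 52955051 and 52955067, lay between 0 and 4.11% in kindling sham rat 2, while its outer CpGs lay between 89.2 and 98.1%. On the strands of these 2 CpGs the lowest of the other 17 rats lay between 41.8 and 60.5%.

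A tile of this kind could lie next to one of the steadiest. At chr16:7014001-7015000 kainic acid sham rat 5 had 48.3% against at least 75.3% in the other rats, with 0 and 30% on the strands of the CpG at 7014309. The lowest of the other 17 rats had 62.1 and 56.1% at that CpG. In the adjoining tile at chr16:7013001-7014000, named above for its small range, kainic acid sham rat 5 had 98.6%.

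Over the 40 tiles the drop mostly concerned part of a tile rather than all of it. A row was counted as low where the rat stood 20 points or more below the median of the others. All rows were low in 5 tiles and part of them in 35, which makes 93 of 178 rows. Among the 75 CpGs measured on both strands, 35 were low on both and 5 on 1 strand. Neighbouring tiles mostly did not share it: of 86 measured tiles within 10 kb, 5 were also 10 points or more lower in that rat.

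**Figure D3:**
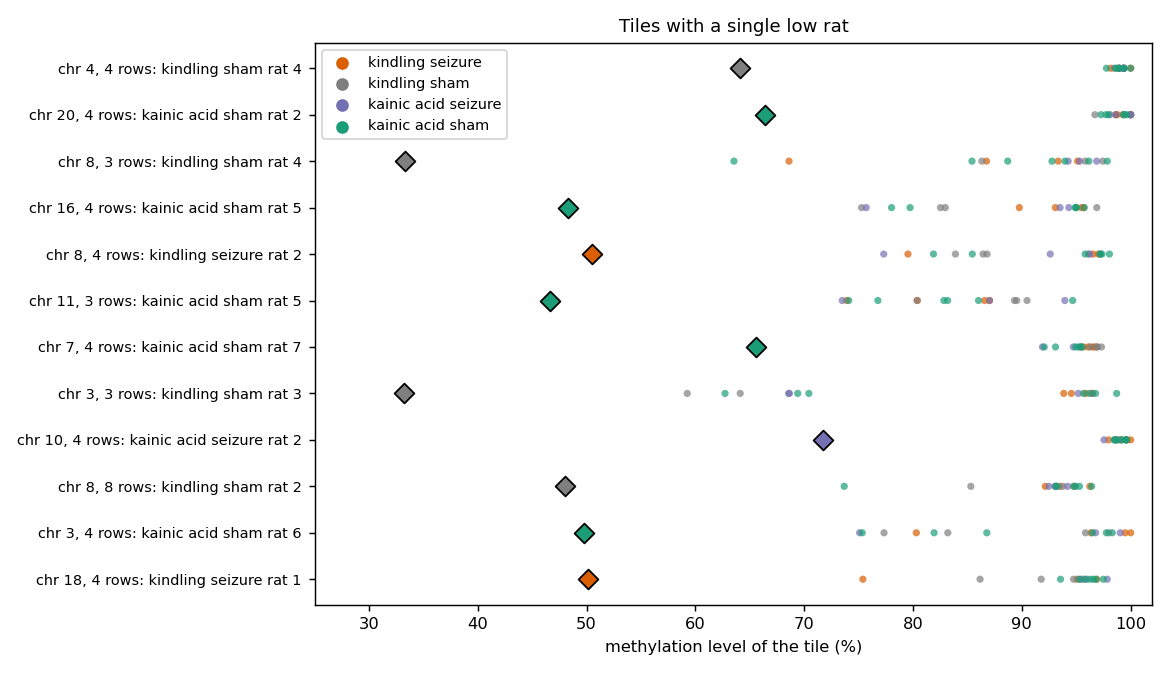
Methylation level in percent (x axis) of all 18 rats at the 12 tiles named for the widest gap between the low rat and the next, at most 2 tiles a rat, with the low rat as a large diamond and the colour giving the group. At the chromosome 4 tile in the first line kindling sham rat 4 stands at 64.1% and the others lie between 97.8 and 100%, and in several lines further rats lie between the low rat and the rest.

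Single-rat tiles were spread over 14 of the 18 rats and were most frequent in kindling sham rat 4. The number was 3, 3, 0 and 0 in kindling seizure rats 1 to 4, and 2, 4, 4 and 10 in kindling sham rats 1 to 4. It was 0, 2 and 1 in the kainic acid seizure rats, and from 0 to 3 with a median of 2 in the kainic acid sham rats. Kindling sham rats thus held 20 of the 40 tiles against 6 in kindling seizure rats, and the groups overlapped. Kindling sham rat 4 also had the widest difference between strands, an SD of 6.72 points, and its part in the count was not tested. Without that rat 32 tiles met the rule.

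The drop in 1 rat was also counted at single cytosines. A cytosine was counted where the lowest rat stood at least 40 points below the other 17, which held for 230 cytosines (0.0758%) at 194 CpGs in 189 tiles (0.334%). The low rat had less than 5% at 115 of them, with exactly 0 at 39. Between 5 and 20% there were 19, between 20 and 40% there were 47, and between 40 and 60% there were 49. Between 35 and 50% there were 62. Since the low rat had to be 40 points below rats that cannot exceed 100%, the rule itself allows no level above 60%. The median of the other 17 rats had a median of 92.8% over these cytosines.

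The drop was mostly shared by both strands of the CpG and mostly not by the rest of the tile. The other strand was measured for 164 of these cytosines and was also at least 20 points below the median of the other rats at 153 (93.3%). The 230 cytosines lay at 194 CpGs, so at some CpGs both strands met the 40-point rule. Such a CpG enters with each strand and its agreement is favoured by the rule, so the share is a description. The remaining cytosines of the same tiles, 805 in all, had a median difference of 0 points from the other rats in that rat, and 16 (1.99%) were 20 points or more lower. The same kind of cytosine made up 0.0665% of sparse methylated tiles near a dense tile, 0.0964% of methylated tiles with 10 to 39 cytosines and 0.0642% of dense methylated tiles. No test compared these shares. At the level of whole tiles, a single rat 20 points or more below the others was found in 40 tiles here (0.0707%), in 0 of the 3645 near a dense tile, 0 of the 19923 with 10 to 39 cytosines and 0 of the 271 dense ones. It was found in 31 (0.113%) of the 27508 sparse distant tiles with a mean under 80%. A mean over more cytosines moves less when 1 CpG is low, so the counts of the classes with 10 or more cytosines depend on that number. The sparse tiles near a dense tile had the same median number of cytosines as the tiles here, 5, but there were only 3645 of them. A single rat 10 points or more below the others was found in 0.439% of them and in 0.576% of the tiles here.

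The number of such cytosines per rat was 15, 15, 2 and 1 in kindling seizure rats 1 to 4, and 2, 40, 24 and 48 in kindling sham rats 1 to 4. It was 4, 17 and 1 in the 3 kainic acid seizure rats, and from 3 to 13 with a median of 10 in the 7 kainic acid sham rats. Kindling sham rats 2 and 4 stood highest, kindling sham rat 1 was among the lowest, and all groups overlapped.

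**Figure D4:**
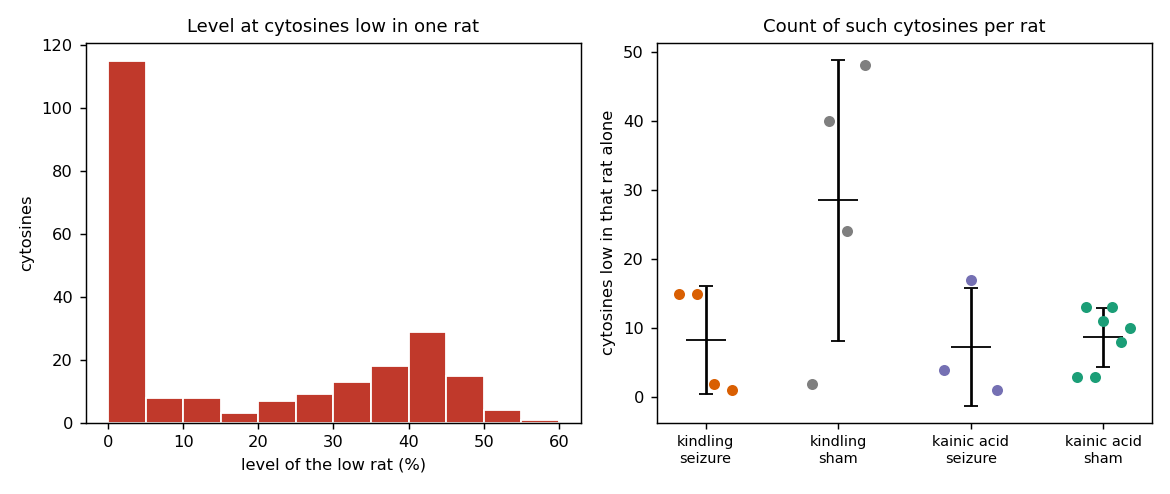
Left, number of cytosines (y axis) by the level of the low rat in percent (x axis, bins of 5 points) for the 230 cytosines at least 40 points below all other rats; right, number of these cytosines per rat, with group mean (line) and SD (bars). The left panel has 115 cytosines under 5% and 62 between 35 and 50%; no level above 60% is possible by the rule; the right panel has kindling sham rats 4 and 2 at 48 and 40.

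By a looser rule low levels were also found in several rats at once. A level at least 20 points below the tile's median was seen in 383 tiles (0.677%). It concerned 1 rat in 238 tiles, 2 rats in 74, 3 in 32, 4 in 16, 5 in 9, 6 in 6, 7 in 6 and 8 in 2. The rats of a pair came from the same model in 40 of the 74 tiles. This was not set against the share that random pairs of rats would give, so it does not show pairing by model. The number of such tiles per rat was 46, 43, 30 and 32 in kindling seizure rats and 16, 51, 65 and 79 in kindling sham rats. It was 23, 43 and 26 in kainic acid seizure rats, and from 25 to 46 with a median of 32 in kainic acid sham rats.

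The 5 tiles with the widest ranges were looked at rat by rat. The widest tile, chr2:236631001-236632000 with 3 cytosines, had 34.1, 32.8, 97.2 and 98.9% in kindling seizure rats 1 to 4, and 97.5, 32.7, 74.6 and 96.3% in kindling sham rats 1 to 4. It had 99.2, 71.3 and 98.5% in kainic acid seizure rats, and from 64.6 to 98.97% with a median of 97.7% in kainic acid sham rats. The 18 rats thus fell near 33%, between 64.6 and 76.2%, or at 96.3% and above. Each of these levels held both seizure and sham rats.

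At chr3:103362001-103363000 the kindling seizure rats had 95.9, 93.8, 96.5 and 94.5%, and the kindling sham rats 59.2, 64.1, 33.2 and 96.5%. The kainic acid seizure rats had 68.6, 95.2 and 68.6%, and the kainic acid sham rats lay between 62.7 and 98.7% with a median of 95.7%. Rats between 59.2 and 70.4% were found in 3 of the 4 groups. At chr8:125966001-125967000 kindling sham rat 4 had 33.3%, kainic acid sham rat 4 had 63.5% and kindling seizure rat 1 had 68.6%, and the other 15 rats had 85.4% or more. At chr3:45459001-45460000 kindling sham rat 3 had 37.7% and kainic acid sham rat 2 had 47.6%, and the other 16 rats had 88.7% or more. At chr12:45481001-45482000 kainic acid sham rat 6 had 37.3% and kindling seizure rat 1 had 48.4%, and the other 16 rats had 72.7% or more. The kindling seizure rats had 48.4, 93.0, 88.3 and 89.7% there and the kindling sham rats 93.3, 72.7, 91.2 and 85.7%. The kainic acid seizure rats had 93.6, 90.6 and 83.3%, and the kainic acid sham rats 37.3 to 90% with a median of 86.4%.

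Cytosines with a range of 60 points or more numbered 1673, in 1230 tiles (2.17%). Of their levels 9.84% were under 10%, 4.08% between 10 and 30%, 29.8% between 30 and 60%, 12.8% between 60 and 80% and 43.5% at 80% or above.

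Group differences were tested where a tile varied enough between rats. Of the 56583 tiles, 29244 had a range of at least 5 points, and they were tested among all 84584 tiles of the table with that range by limma, in 1 model over the 4 groups. Since the range filter and the limit on level both act on these values, the tested tiles do not stand for all of them. No tile passed a Benjamini-Hochberg adjusted p of 0.05 in any of 5 contrasts. The median 95% interval of a difference reached 3.35 points to either side in kindling and 3.27 points in kainic acid.

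The kindling comparison asked where repeated hippocampal stimulation to full kindling left a different level. By limma 0 of the 29244 tiles passed (background 0% of all tiles tested), the smallest adjusted p being 0.682. Without adjustment 1821 (6.23%) were under 0.05, against a background of 5.71%. Of these, 1143 (3.91%, background 3.59%) were higher and 678 (2.32%, background 2.12%) lower in seizure rats, shares close to those of all tiles. All seizure rats stood above all sham rats in 457 tiles (1.56%, background 1.53%) and below them in 302 (1.03%, background 0.91%). A difference of 5 points or more in either direction was found in 1177 tiles (4.02%, background 7.3%), and one of 10 points or more was higher in 72 (0.246%, background 0.528%) and lower in 50 (0.171%, background 0.447%).

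The kindling tile with the smallest p among those higher in seizure rats was chr5:150996001-150997000, with 8 cytosines at 4 CpGs. Its level was 88.1, 91.1, 89.3 and 90.02% in the seizure rats and 83.8, 81.2, 81.8 and 76.6% in the sham rats. The groups did not overlap, and the difference was 8.79 points (SE 1.63, limma unadjusted p = 3.91e-05, adjusted p = 0.682). The kainic acid seizure rats had 87.3, 90.9 and 87.4% and the kainic acid sham rats 84.1 to 90.2% there, so the kindling sham rats were the group apart.

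Kindling sham rats 1, 3 and 4 stood apart from all other rats at a further tile. At chr19:10757001-10758000 the level was 84.7, 81.1, 83.6 and 86.7% in kindling seizure rats and 66.5, 81.1, 59.9 and 55.3% in kindling sham rats. The kainic acid rats lay between 85.9 and 87.9% with seizures and between 82.5 and 90.3% without. Sham rat 2 was at the level of the seizure rats, and the difference of 18.3 points (SE 3.65, limma adjusted p = 0.682) became 23.4 points and passed without that rat (limma adjusted p = 0.00145). At chr15:35109001-35110000 the kindling seizure rats had 84.98, 87.5, 84.6 and 85.045% and the sham rats 78.3, 80.2, 66.0 and 71.1%, a difference of 11.6 points (SE 2.47, limma adjusted p = 0.682). All 4 seizure rats stood above all 4 sham rats, but the kindling sham rats were not apart from the kainic acid rats. The kainic acid rats had 84.4, 78.2 and 77.8% with seizures and 80.3 to 86.8% without, so kainic acid seizure rats 2 and 3 lay below kindling sham rats 1 and 2.

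The tile with the smallest p among those lower in kindling seizure rats was chr2:258583001-258584000, with 3 cytosines. The kindling seizure rats had 76.4, 71.8, 66.5 and 73.1% and the kindling sham rats 81.9, 86.2, 85.7 and 95.6%, a difference of -15.4 points (SE 2.71, limma unadjusted p = 2.17e-05, adjusted p = 0.682). The kainic acid seizure rats had 74.9, 76.9 and 74.1% and the kainic acid sham rats 77.2 to 88% with a median of 84.3%. In both models every seizure rat was below every sham rat there.

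At chr9:39140001-39141000 the level was 92.8, 88.3, 92.9 and 92.0% in kindling seizure rats and 96.9, 97.1, 96.3 and 100% in sham rats. The groups did not overlap, and the difference was -6.07 points (SE 1.24, limma adjusted p = 0.682). The kainic acid rats had 93.1 to 94.8% with seizures and 90.5 to 96.1% without. Here too the kindling sham rats were the group apart. At chr5:142956001-142957000 the kindling seizure rats had 83.0, 79.4, 76.8 and 74.6% and the kindling sham rats 85.8, 87.5, 91.5 and 90.9%, a difference of -10.5 points (SE 2.26, limma adjusted p = 0.682). All 4 kindling seizure rats stood below all 4 kindling sham rats there too. The kainic acid rats had 76.6, 86.7 and 84.2% with seizures and 79.0 to 86.8% without. At chr20:20471001-20472000 the kindling seizure rats lay between 85.8 and 87.9% and the kindling sham rats between 90.6 and 95.1%. The kainic acid rats lay between 88.4 and 89.7% with seizures and between 86.8 and 91.8% without. Over the 12 kindling tiles named by smallest p, the 6 higher ones had differences of 5.44 to 18.3 points and the 6 lower ones of -15.4 to -3.86 points, and none passed.

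Some further tiles passed in kindling only when 1 rat was left out. Without kindling sham rat 1, 2 tiles on chromosome 20 passed, at chr20:12311001-12312000 (31.6 points, limma adjusted p = 0.000745) and chr20:12205001-12206000 (14.4 points, limma adjusted p = 0.00599). At chr20:12311001-12312000 the seizure rats had 96.0, 94.2, 94.8 and 93.6%, sham rat 1 had 94.6% and sham rats 2 to 4 had 49.5, 67.2 and 72.3%. All kainic acid rats lay between 92.2 and 96.0% there. In the megabase from 12000001 to 13000000 of chromosome 20, 7 of 28 tested tiles had an unadjusted p under 0.05 and all 7 were higher in kindling seizure rats. That megabase was chosen after its values were seen. In kindling 6.23% of the 29244 tested tiles of this kind and 5.71% of all tiles tested were under 0.05. Of 2589 megabases with a tested tile, chromosome 5 from 157000001 to 158000000 had more, 8 of 41. Chromosome 2 from 23000001 to 24000000 had 7 of 23 and chromosome 17 from 6000001 to 7000000 had 7 of 32. In these 3 the directions were mixed, with 4, 3 and 3 tiles higher and 4 lower in each.

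Without kindling seizure rat 3, chr1:133863001-133864000 passed (-19.1 points, limma adjusted p = 0.00942). Its level was 69.1, 72.6, 91.4 and 75.2% in seizure rats and 84.8, 92.0, 93.9 and 95% in sham rats. Without kindling seizure rat 4, chr15:54607001-54608000 passed (-22.5 points, limma adjusted p = 0.0298). There the kindling seizure rats had 72.5, 74.0, 74.4 and 96.0% and the kindling sham rats 96.9, 97.1, 93.6 and 96.9%. Kainic acid sham rat 2 had 81.1% at that tile, and the other kainic acid rats 94.8 to 97.6%. In each of these tiles the rat left out stood with the other kindling group.

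**Figure D5:**
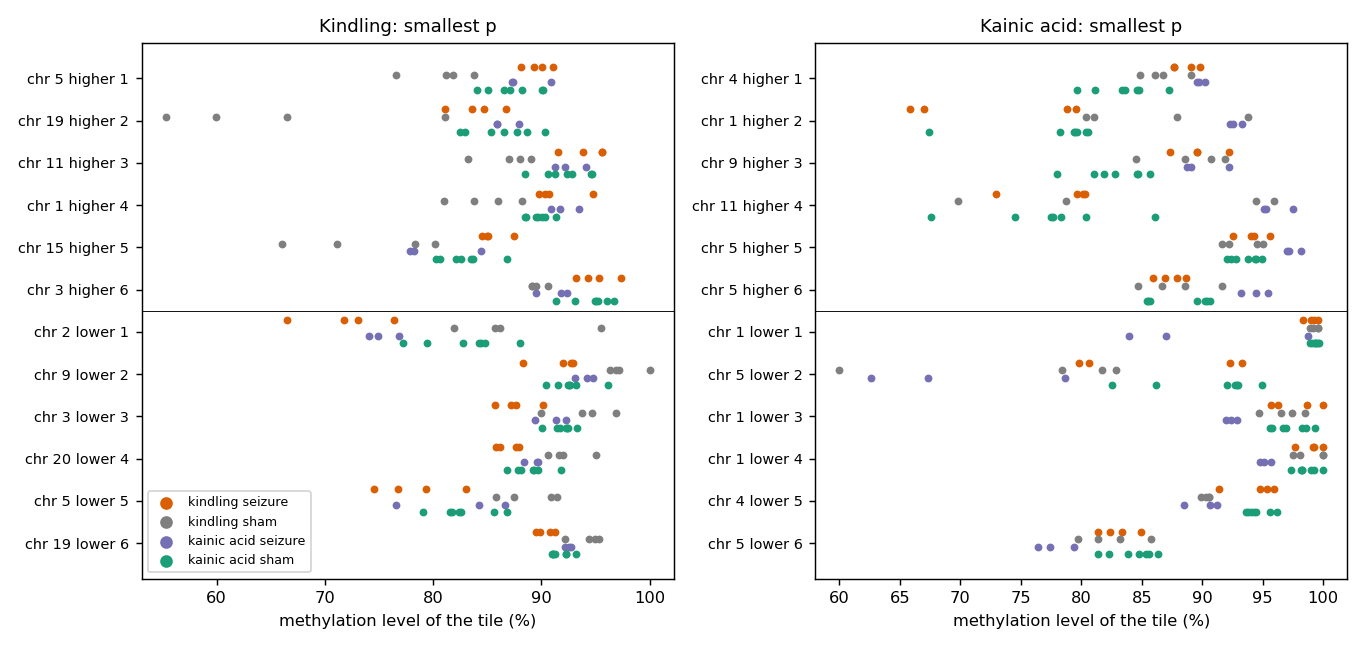
Methylation level in percent (x axis) of every rat, coloured by group, at the 6 tiles of smallest p higher and the 6 lower in seizure rats, for kindling (left) and kainic acid (right); each point is 1 rat. None of these tiles passed the adjusted test, and at the second kindling line, the chromosome 19 tile, 3 kindling sham rats stand at 55.3 to 66.5% and kindling sham rat 2 at 81.1%.

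The kainic acid comparison asked the same after chemically induced status epilepticus. By limma 0 of the 29244 tiles passed (background 0%), the smallest adjusted p being 0.999948. Without adjustment 1150 (3.93%) were under 0.05, against a background of 3.54%. Of these, 606 (2.07%, background 2.13%) were higher and 544 (1.86%, background 1.41%) lower in seizure rats. All seizure rats stood above all sham rats in 263 tiles (0.899%, background 0.982%) and below them in 163 (0.557%, background 0.507%). A difference of 5 points or more was found in 779 tiles (2.66%, background 5.16%), and one of 10 points or more was higher in 48 (0.164%, background 0.409%) and lower in 70 (0.239%, background 0.352%).

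At the tile of smallest p among those lower in kainic acid seizure rats, chr1:54394001-54395000 with 6 cytosines at 3 CpGs, the seizure rats had 87.0, 98.7 and 83.9% and the sham rats 98.9 to 99.6% with a median of 99.3%. The kindling rats lay between 98.3 and 99.6% with seizures and between 98.9 and 99.6% without. The low levels were thus those of kainic acid seizure rats 1 and 3, with rat 2 just under the sham rats. The difference was -9.42 points (SE 1.87, limma adjusted p = 0.999948), and without kainic acid seizure rat 2 it was -13.8 points and passed (limma adjusted p = 1.42e-07).

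The same 2 rats were low at the other tiles that passed without kainic acid seizure rat 2. At chr1:241261001-241262000 the seizure rats had 78.6, 98.2 and 74.2% and the sham rats 93.9 to 97.7% (-19.3 points without rat 2, limma adjusted p = 1.48e-05). The kindling rats lay between 90.7 and 96.8% there. At chr2:243073001-243074000 the kainic acid seizure rats had 73.9, 95.9 and 69.6% and the kainic acid sham rats 95.7 to 97.7% (-25.1 points without rat 2, limma adjusted p = 0.000794). Kindling sham rat 1 was also low at this tile, with 83.5%, and the other kindling rats lay between 96.1 and 98.2%. These 3 tiles came out because 1 rat was left out, and each then rests on 2 seizure rats.

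Without kainic acid seizure rat 1, 2 tiles on chromosome 9 passed, at chr9:15850001-15851000 (-14.0 points) and chr9:16425001-16426000 (-18.0 points), each with a limma adjusted p of 0.0267. At the second of them the kainic acid seizure rats had 85.7, 69.3 and 71.1% and the kainic acid sham rats 86.5 to 90.4%. Kindling sham rat 1 was also low there, with 75.6%, and the other kindling rats lay between 84.9 and 89.7%. At the first tile the kindling rats lay between 88.4 and 96.6%. Kainic acid seizure rat 1 was close to the kainic acid sham rats at both tiles.

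At other kainic acid tiles all 3 seizure rats agreed. At chr1:169239001-169240000 the kainic acid seizure rats had 92.3, 92.6 and 93.3% and the sham rats 67.4 to 80.5% with a median of 79.5%, a difference of 14.8 points (SE 3.43, limma adjusted p = 0.999948). At chr11:15161001-15162000 the seizure rats had 95.1, 95.2 and 97.5% and the sham rats 67.6 to 86.1% with a median of 77.7%, a difference of 18.5 points (SE 4.42, limma adjusted p = 0.999948). The groups did not overlap at either. The kindling rats spanned both levels at the second tile, with 80.1, 72.9, 80.3 and 79.6% in seizure rats and 94.4, 78.7, 96.0 and 69.8% in sham rats.

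Smaller differences were also found with groups apart. At chr4:70665001-70666000 the kainic acid seizure rats had 90.2, 89.6 and 89.7% and the sham rats 79.6 to 87.3%, a difference of 6.35 points (SE 1.38, limma adjusted p = 0.999948). At chr1:126801001-126802000 the seizure rats had 92.9, 92.0 and 92.4% and the sham rats 95.6 to 99.4%. At chr5:103962001-103963000 they had 79.4, 77.4 and 76.4%, against 81.4 to 86.4% in the sham rats. Over the 12 kainic acid tiles named by smallest p, the 6 higher ones had differences of 3.93 to 18.5 points and the 6 lower ones of -21.1 to -3.43 points, and none passed.

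Single cytosines gave the same picture. Of the 303301 cytosines in the tiles, 138153 had a range of at least 10 points and were tested among 794376 of the table. By limma 0 of them passed in kindling (background 0%), and 7988 (5.78%, background 5.72%) had an unadjusted p under 0.05. In kainic acid 0 passed (background 0.000629%, which is 5 cytosines outside these tiles), and 5052 (3.66%, background 3.82%) had an unadjusted p under 0.05. The nearest to the threshold was the minus-strand cytosine at 89276524 on chromosome 10, with 92.0, 86.7 and 89.5% in kainic acid seizure rats and 100% in all 7 kainic acid sham rats (-10.6 points, limma adjusted p = 0.0566). All 4 kindling sham rats also had 100% there, as did kindling seizure rats 1, 2 and 4, with 95.7% in kindling seizure rat 3.

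In kindling the cytosine with the smallest p was at 180044266 on the plus strand of chromosome 4, with 74.5, 72.5, 80 and 86.7% in seizure rats and 95.7, 97.4, 96.7 and 94.4% in sham rats (-17.6 points, limma adjusted p = 0.558). The minus-strand cytosine at 10757170 of the chromosome 19 tile came next, with 88.7, 89.8, 91.1 and 90.5% in seizure rats and 66.0, 83.3, 71.4 and 63.3% in sham rats. For the mean of both models, the difference between models and the sham rats, 0 cytosines passed by limma (background 0, 0.000629 and 0%). Under an unadjusted p of 0.05 lay 6266 (4.54%, background 4.74%), 6505 (4.71%, background 4.63%) and 9135 (6.61%, background 6.16%) in these contrasts. Depending on the rat left out, 0 to 10 cytosines passed in kindling, the highest without kindling sham rat 1, and 0 to 11 in kainic acid, the highest without kainic acid seizure rat 2.

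Differences common to the models were tested as the mean of both. By limma 0 tiles passed (background 0%), the smallest adjusted p being 0.773. Without adjustment 1495 (5.11%, background 4.56%) were under 0.05, with 950 (3.25%, background 3.07%) higher and 545 (1.86%, background 1.48%) lower after seizures. The smallest p belonged to chr2:258583001-258584000, where every seizure rat was below every sham rat of its model, with a mean difference of -11.6 points over both models (SE 1.89, limma unadjusted p = 9.14e-06, adjusted p = 0.773). The tile at chr9:99035001-99036000 stood at 88.9, 91.8, 92.8 and 91.5% in kindling seizure rats and 88.9, 88.3, 88.8 and 86.8% in kindling sham rats. It stood at 93.5, 91.7 and 94.2% in kainic acid seizure rats and 86.5 to 90.9% in kainic acid sham rats. Its mean difference was 3.71 points (SE 0.813, limma adjusted p = 0.990), and kindling seizure rat 1 was at the level of sham rat 1. The tile at chr11:45027001-45028000, with a mean difference of -2.37 points (SE 0.542, limma adjusted p = 0.990), had 97.7, 95.8, 95.8 and 95.6% in kindling seizure rats and 98.1, 100, 98.9 and 98.3% in kindling sham rats. Leaving out kindling sham rat 1 made 1 tile pass (chr20:12311001-12312000, limma adjusted p = 0.0465), and leaving out kainic acid seizure rat 2 made 2 pass (chr1:54394001-54395000 and chr1:241261001-241262000).

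The gap between the models, as the kainic acid difference less the kindling difference, did not pass in any tile either (limma, background 0%), the smallest adjusted p being 0.499. Without adjustment 1526 (5.22%, background 4.75%) were under 0.05. At chr1:169239001-169240000, described above, the kindling seizure rats had 67.0, 65.8, 79.6 and 78.8% and the kindling sham rats 87.9, 81.0, 80.4 and 93.7%. The order of the groups was thus opposite in the models, and the kainic acid difference exceeded the kindling difference by 27.8 points (SE 4.91, limma unadjusted p = 2.28e-05, adjusted p = 0.585). At chr4:7465001-7466000 that gap was -8.47 points (SE 1.40, limma adjusted p = 0.499), with 88.5, 90.6 and 91.3% in kainic acid seizure rats and 93.6 to 96.2% in kainic acid sham rats. Kindling seizure rats had 94.7, 95.3, 91.4 and 95.9% and kindling sham rats 90.5, 90.5, 90.3 and 89.9% there. Leaving out kindling sham rat 1 made 2 tiles pass for this difference (chr20:12311001-12312000 and chr5:158420001-158421000), and leaving out kainic acid seizure rat 2 made the 3 tiles pass that are named above for that rat.

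The sham rats of both models were compared as a check on the models' baselines. In kainic acid sham minus kindling sham, 0 tiles passed by limma (background 0%), the smallest adjusted p being 0.207. Without adjustment 2140 (7.32%, background 6.35%) were under 0.05, the highest share of the 5 contrasts. The first tile was that on chromosome 19 starting at 10757001, higher by 20.6 points in kainic acid sham rats (SE 3.24). At chr13:104421001-104422000 the kainic acid sham rats had 89.2 to 97.4% with a median of 94.1%, and the kindling sham rats 81.6, 82.3, 90.3 and 82.1%. At chr13:46395001-46396000 the kainic acid sham rats had 80.3 to 86.5% with a median of 82.3%, and the kindling sham rats 90.2, 88.7, 93.6 and 90.2%. Anything else that differed between the cohorts of the models cannot be told apart from the model.

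That comparison depended on single kindling sham rats. Without kindling sham rat 1, 4 tiles passed, 3 of them between 12074001 and 12312000 on chromosome 20 and the other at chr5:158420001-158421000. Without kindling sham rat 2, 1 tile passed (chr19:10757001-10758000, limma adjusted p = 8.00e-05). Leaving out kindling sham rat 3 made 3 tiles pass (chr13:101564001-101565000, chr13:104421001-104422000 and chr7:120627001-120628000, limma adjusted p = 0.0174 each). At chr13:101564001-101565000 the kainic acid sham rats had 84.2 to 92.0%, kindling sham rat 3 had 90.6%, and kindling sham rats 1, 2 and 4 had 70.4, 64.8 and 65.8%.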

How the data were processed

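Reduced representation bisulfite sequencing covered left hippocampal DNA of 18 rats. Per the labels and the values, the deposited table holds a methylation fraction (beta value) per cytosine and rat, with separate rows for the strands. Tools named in the submitters' processing notes are Bismark, Bowtie2, methylKit, FastQC and Trim Galore, and the build is rn6. The sources used here give no versions, minimum coverage or other filters, and the depth is unknown. Columns were matched to rats by library name, and 0 were left unused.

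Levels were averaged over the rows of each tile. Tiles were tested where the range over 18 rats was at least 5 points and cytosines where it was at least 10 points, on the fraction scale with limma 3.58.1 (R 4.3.3, data.table package in version 1.17.8), over all 4 groups, with a variance prior trended on the mean level. Adjusted p-values run over all units tested in a contrast. The code was tested on simulated data. Figures used Python 3.11.15 and matplotlib 3.10.9. Differences are seizure minus sham, and kainic acid minus kindling.

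Named tiles were the 6 of smallest p in each direction in each model, 3 in each direction in the other contrasts, 12 single-rat tiles of widest gap (at most 2 a rat) and the 5 tiles of 9 rows with the smallest range; a subset is given in full. The widest tiles, the tiles that passed without 1 rat and the chromosome 20 megabase were chosen after their values were seen. The tiles, lists and rules were chosen with earlier results of these data known. No genome or annotation of rn6 was used, so genes and sequences are not given, and lists of receptor, channel and methylation genes were not applied.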

Additional observations from a re-analysis of the deposited data

Results flagged for a closer look

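In 15 of 171 group checks, 1 rat stood far from the other rats of its group. The kainic acid seizure group, with 3 rats, was too small for the check, so none of its rats could be flagged. The 95% critical values used here are nominally passed by chance in about 1 in 20 groups, and 9 of the 15 concern the tiles chosen for a single low rat. Kainic acid sham rat 5 had 3.94% of tiles under 80%, above the next value of 3.13% in that group.

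Among tiles named by their group differences, kindling seizure rat 2 was high at chr15:35109001-35110000 (87.5%) and low at chr11:15161001-15162000 (72.9%). Kainic acid sham rat 6 was low at chr1:169239001-169240000 (67.4%). Kindling seizure rat 1 was high at chr11:45027001-45028000 (97.7%), and kindling sham rat 3 at chr13:104421001-104422000 (90.3%).

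Among single-rat tiles, the low rat itself stood apart within its group at chr4:159339001-159340000 (kindling sham rat 4, 64.1%), chr20:30488001-30489000 (kainic acid sham rat 2, 66.4%), chr16:7014001-7015000 (kainic acid sham rat 5, 48.3%), chr11:72120001-72121000 (kainic acid sham rat 5, 46.7%) and chr7:25696001-25697000 (kainic acid sham rat 7, 65.6%). Other rats also stood apart in their groups at such tiles. These were kainic acid sham rat 4 at chr8:125966001-125967000 (63.5%) and chr8:52955001-52956000 (73.7%), kindling sham rat 2 at chr20:30488001-30489000 (96.7%) and kindling sham rat 1 at chr11:72120001-72121000 (80.4%).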

How the results depend on the processing

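The numbers of tiles and cytosines that passed stayed at 0 on the log2 odds scale and under the other range filters, and the tile counts also with array weights, averaged strands and fits within 1 model. Replicate numbers did not pair the rats: same-numbered rats had correlations of their deviations from -0.111 to 0.155 in kindling and from -0.0418 to -0.0156 in kainic acid. With the replicate block 0 tiles passed, as did 0 cytosines in kindling and in the mean of both models, but 3 cytosines passed in kainic acid and 2 for the difference between models; the cause was not tested. Leaving out each rat in turn gave 0 to 2 tiles in kindling, 0 to 3 in kainic acid, 0 to 2 for the mean of both, 0 to 3 for the difference between models and 0 to 4 for the sham rats. For cytosines it gave 0 to 10, 0 to 11, 0 to 6, 0 to 8 and 0 to 16 in the same order of contrasts. The mean differences ran from 0.0910 to 0.281 points in kindling and from 0.0314 to 0.195 points in kainic acid. They stayed above 0 with other limits on level, cytosine number or distance and with a mean over cytosines. Maintained tiles numbered 48136 to 48404 without single rats, 29619 at 90% and 26468 with at least 5 rows. Single-rat tiles numbered 32 to 46 without single rats, 3 at a gap of 30 points, 98 at 15, 326 at 10 (added after seeing the data) and 10 with at least 5 rows. Tiles at an unadjusted p under 0.05 numbered 3359 in kindling and 2599 in kainic acid without the range filter, and 667 and 414 with a range of 10 points, since those filters change how many are tested. Over 42 results of named tiles, no alternative of 1013 reversed a direction.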
